A study of Mus musculus with 36 samples.

Results

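Liver gene expression was compared between mice heterozygous for the Loop-tail (Lp) allele of Vangl2 and wild-type mice of the same stock. The comparison rests on 8 of the 36 arrays of a panel of neural tube defect mouse models, chosen by their sample titles. The 4 Lp heterozygotes (strain Vangl2Lp, genotype Heterozygote) carry a label of resistance to dietary folic acid (FA). The 4 Lp wild types carry the same strain label with the genotype wild-type, and the sample descriptions name them as the controls of the heterozygotes. All 8 were females aged 6 to 8 weeks that were fasted for 4 to 5 hours before dissection, with 1 Affymetrix array per mouse. The other groups used below, also 4 females each of that age, are Lrp6Cd heterozygotes (Cd, labelled responsive to dietary FA), Apobtm1Unc heterozygotes (Apob, resistant), Pax3Sp2H heterozygotes (Pax3, responsive), the ct stock (resistant), Cd wild types, C57BL/6J and CBA/CaJ. No time of day is given for any dissection in the labels.

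Vangl2 encodes a membrane protein of the planar cell polarity pathway, which aligns cells within the plane of a tissue and drives the convergent extension movements that close the neural tube. Lp is a missense mutation of Vangl2, and embryos with both copies mutated fail to close most of the neural tube. In adult liver the transcript programmes with the widest daily swings are those of the circadian clock, in which CLOCK and BMAL1 (gene Arntl) switch on the Per, Cry, Nr1d and Ciart genes, whose products then repress them. Dbp, Tef, Hlf and Nfil3 carry that rhythm to liver enzymes, heme synthesis among them.

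All values are MAS5 signals, in arbitrary units on a linear scale, and differences are in log2(signal + 23), Lp heterozygote minus Lp wild type. The tissue label was checked against 11 hepatocyte markers, all of which passed the filter on low signal, with albumin (Alb) at 56282, 71246, 50881 and 79542 in Lp heterozygotes, against 44134, 41435, 48830 and 48231 in Lp wild types. Their summed signal was 484922 to 591706 in Lp heterozygotes, against 414687 to 473664 in Lp wild types, without overlap. The heterozygote 4 array stood apart from the rest: its lower quartile of signal was 56.3, against 27.3 to 31.8 on the other heterozygote arrays and 33.3 to 40.4 on the wild-type arrays. Its median correlation with the other arrays was 0.931, against 0.952 to 0.957 for the other 7. Values without it are given beside some of the results that they change, not all.

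Of 45037 probe sets, 25823 had a mean above the 40th percentile of all values and were tested with limma, with Benjamini-Hochberg adjustment over all of them. Of these, 1 probe set was called higher at an adjusted p below 0.05 (0.00387%) and 0 were called lower (0%). At an unadjusted p below 0.05 there were 2192 probe sets (8.49%). The called probe set, 1453023_at, is annotated with 2 gene symbols and is therefore given by its identifier alone. Its signals were 5620, 5018, 5303 and 6703 in Lp heterozygotes, against 1836, 1474, 1833 and 1240 in Lp wild types. The lowest heterozygote lay far above the highest wild type, and the probe set rose 3.54-fold (log2 difference 1.82 ± 0.17 (SE), n = 4 per group, limma adjusted p = 0.00222). It was not called in a fit over all 36 arrays, where its limma adjusted p was 0.0590.

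A further 7 probe sets lay between an adjusted p of 0.05 and 0.1, which makes 8 at below 0.1 (0.031%). Of these 7, 5 had an adjusted p of 0.0541 and were higher in heterozygotes: Ciart, Apcs, Gpcpd1, Snx10 and Alas1. When each gene was tested by 1 probe set, that with the highest mean, these 5 were the genes called among 12828, each with a limma adjusted p of 0.0297. The other 2, for Dus2 (1452687_at, log2 difference -1.80) and Lasp1 (1438633_x_at, -1.28), were lower with an adjusted p of 0.0995. The Dus2 probe set with the highest mean had a log2 difference of -0.08, so the probe sets for that gene disagreed.

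**Figure D1:**
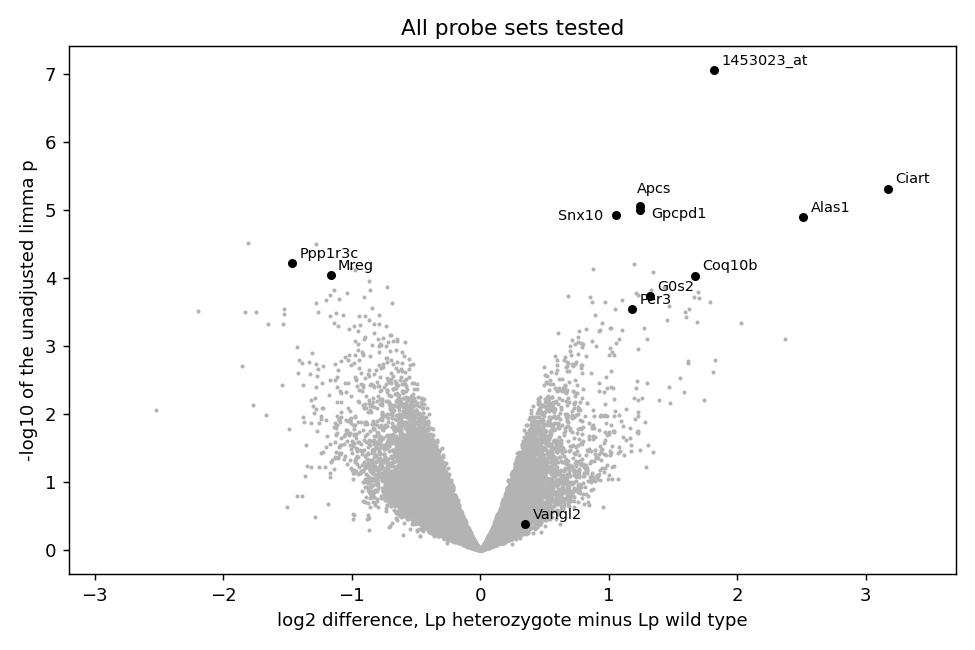
Log2 difference, Lp heterozygote minus Lp wild type (x axis), against the negative log10 of the unadjusted limma p (y axis) for the 25823 probe sets tested. Probe set 1453023_at stands above the rest, Ciart has the largest positive difference at 3.17 and Vangl2 lies near the bottom at 0.35.

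Circadian clock genes held the largest difference of a named gene and the highest share of unadjusted p-values below 0.05 among the 36 lists examined. With an offset of 64 in place of 23, the Ciart difference was 2.39 and that of Alas1 was 2.49. The upstream sequences of 3 of them are shown because they carry the DNA elements through which the clock is known to act: the E-box CACGTG, bound by CLOCK and BMAL1, and the D-box TTATGTAA (TTACATAA on the other strand), bound by DBP, TEF, HLF and NFIL3. Both strands were searched in the 250 bases upstream of RefSeq gene starts (GRCm38.p6), the E-box reads the same on both strands, and matches are in capitals.
Ciart (chr3:95882229-95882478, minus strand): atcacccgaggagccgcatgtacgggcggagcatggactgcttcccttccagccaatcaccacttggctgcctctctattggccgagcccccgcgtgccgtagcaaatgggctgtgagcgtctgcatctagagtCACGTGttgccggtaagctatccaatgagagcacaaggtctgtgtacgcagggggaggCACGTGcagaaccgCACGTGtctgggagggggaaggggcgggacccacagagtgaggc
Per1 (chr11:69098699-69098948, plus strand): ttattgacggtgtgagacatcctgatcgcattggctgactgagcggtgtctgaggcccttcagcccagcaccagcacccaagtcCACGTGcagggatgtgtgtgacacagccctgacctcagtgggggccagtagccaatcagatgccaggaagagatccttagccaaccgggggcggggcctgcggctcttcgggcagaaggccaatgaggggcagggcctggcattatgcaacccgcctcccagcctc
Per3 (chr4:151044666-151044915, minus strand): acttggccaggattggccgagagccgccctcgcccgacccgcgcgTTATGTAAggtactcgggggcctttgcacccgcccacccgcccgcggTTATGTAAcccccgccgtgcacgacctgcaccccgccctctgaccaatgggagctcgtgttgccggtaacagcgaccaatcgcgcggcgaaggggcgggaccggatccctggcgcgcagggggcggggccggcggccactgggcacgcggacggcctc
The Ciart window held 3 E-boxes, the Per1 window shown 1 E-box and the Per3 window 2 D-boxes. The second Per1 window, not shown, held 0 E-boxes. These 3 genes were picked among those with a match, and all were higher in heterozygotes. Of the other genes with an E-box, Tef was higher, while Cry1 and Lonrf3 did not reach an unadjusted p below 0.05. A window was found for 17 of the 20 clock genes tested, with 22 windows in all because some genes have several. An E-box was in 6 of the 22 windows (27.3%; Ciart, Per1, Tef, Cry1 and Lonrf3), against 6.02% of 32851 windows of all genes. A D-box was in 1 of the 22 (4.55%; Per3), against 0.819% of all windows. A match describes the letters in these windows and does not show binding.

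Ciart, a repressor of CLOCK and BMAL1 activity, had signals of 267, 483, 874 and 180.2 in Lp heterozygotes, against 15.1, 15.9, 19.6 and 40.6 in Lp wild types. The 4 wild types lay near the bottom of the measured range and below every heterozygote, and the heterozygotes themselves spread widely. The difference was 3.17 ± 0.42 on the log2 scale, 9.03-fold (limma adjusted p = 0.0541). Because the wild-type signals were close to the offset of 23, this value depends on it: it was 3.72 with an offset of 8 and 2.39 with an offset of 64.

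Of the 20 clock genes tested, 0 were called by limma, while 10 were higher and 2 lower at an unadjusted p below 0.05, against 3.63% higher and 6.04% lower of all 12828 genes. The groups did not overlap for 5 genes higher in heterozygotes and 1 lower, against 2.35% and 3.47% of all genes. The median log2 difference of the list was 0.37, against -0.03 over all genes. Without heterozygote 3, the counts were 7 higher and 3 lower and the median was 0.22. These counts are from the probe set with the highest mean of each gene. Among 24 further tested probe sets of 12 of these genes, 5 were higher and 3 lower at an unadjusted p below 0.05. Without overlap 2 of the 24 were higher and 1 lower. The shares of all genes given here are also the background for the counts of the lists below.

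Among the clock's repressors, Per3 had 444, 322, 763 and 518 in Lp heterozygotes, against 166, 222, 226 and 199 in Lp wild types, with no overlap (1.18 ± 0.24, limma adjusted p = 0.156). Per1 had 468, 376, 474 and 343 in Lp heterozygotes, against 122, 159, 237 and 442 in Lp wild types, where 1 wild type lay among the heterozygotes (0.87 ± 0.31, unadjusted p = 0.0148). Per2 had 195, 316, 606 and 295 in Lp heterozygotes, against 194, 282, 178 and 167 in Lp wild types (0.64 ± 0.29, unadjusted p = 0.0498). Nr1d2, a nuclear receptor that represses Arntl, had 8233, 10091, 9790 and 8475 in Lp heterozygotes, against 8194, 5305, 4974 and 6138 in Lp wild types, and its groups stood just apart (0.59 ± 0.17). The Per3 separation rests on 1 probe set: the other 4 tested gave 0.39 to 0.61 with overlapping groups. The further Nr1d2 probe set gave 0.95 ± 0.20, also without overlap. The repressors Cry1 (-0.24 ± 0.30), Cry2 (0.04 ± 0.15) and Nr1d1 (-0.32 ± 0.26) overlapped between groups.

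Arntl, which encodes the activator BMAL1, had 208, 179, 91.3 and 147 in Lp heterozygotes, against 398, 855, 817 and 262 in Lp wild types, all heterozygotes below all wild types (-1.65 ± 0.35, unadjusted p = 0.000465, limma adjusted p = 0.173). Nfil3, which opposes DBP at D-boxes, had 331, 450.3, 865 and 208 in Lp heterozygotes, against 406, 1034, 1037 and 1122 in Lp wild types (-1.0 ± 0.39, unadjusted p = 0.0248). Wild type 1 lay below heterozygotes 2 and 3 for Nfil3, so the groups overlapped. Clock, the partner of BMAL1, had a log2 difference of -0.26 ± 0.21 with overlapping groups, and a further Arntl probe set gave -0.63 ± 0.41, also with overlap.

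Among the clock's output genes, Dbp had 4903, 5795, 7739 and 6187 in Lp heterozygotes, against 3265, 1129, 2385 and 5434 in Lp wild types (1.20 ± 0.36, unadjusted p = 0.00569), with the highest wild type inside the heterozygote range. Tef had 3242, 3319, 4395 and 3198 in Lp heterozygotes, against 2725, 2463, 2432 and 3135 in Lp wild types, without overlap (0.39 ± 0.15). Usp2, a deubiquitinase with a strong daily rhythm, had 781, 1598, 1921 and 826 in Lp heterozygotes, against 537, 234, 236 and 953 in Lp wild types (1.47 ± 0.42, unadjusted p = 0.00395). Wee1, a cell cycle kinase under clock control, had 546, 637, 815 and 596 in Lp heterozygotes, against 415, 197, 229 and 404 in Lp wild types, without overlap (1.06 ± 0.24, unadjusted p = 0.000881). Noct, a rhythmic phosphatase first described as a deadenylase, had 1263, 2217, 4725 and 1197 in Lp heterozygotes, against 728, 487, 675 and 2029 in Lp wild types (1.23 ± 0.46). In all of Ciart, Per3, Dbp, Usp2, Wee1 and Noct, heterozygote 3 had the highest signal. Rora (-0.06 ± 0.23) and Hlf (0.13 ± 0.16) overlapped between groups, as did the 2 other tested probe sets of Tef.

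**Figure D2:**
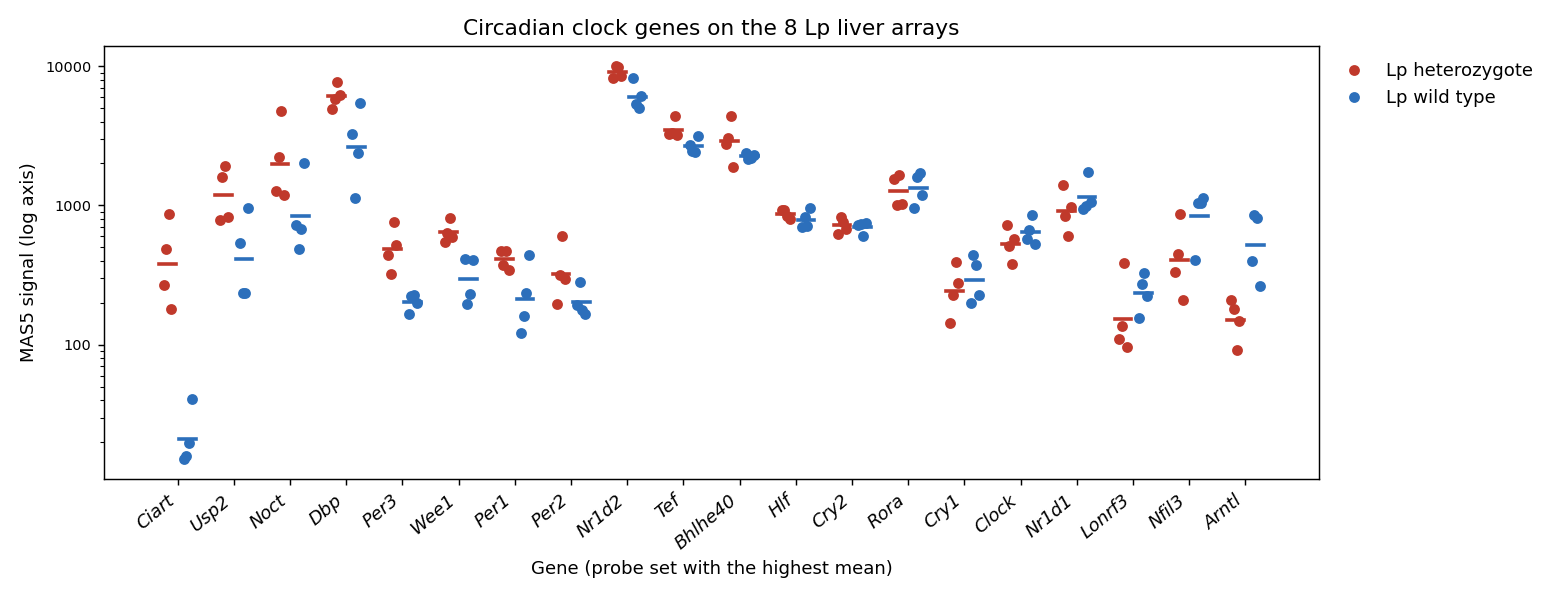
MAS5 signal on a log axis of the 20 clock genes tested, for the 4 Lp heterozygotes (left of each pair) and the 4 Lp wild types (right); each point is 1 mouse and the bar is the geometric mean of the group. Genes run by log2 difference, with Ciart at 3.17 on the left and Arntl at -1.65 on the right.

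The levels of the same genes in the panel's other 7 groups are given as a description, with no test. Ciart averaged 451 ± 309 in Lp heterozygotes, against 22.8 ± 12 in Lp wild types (SD, n = 4 each), and the means of the other 7 groups lay between 208 and 467. The highest Lp wild-type mouse, at 40.6, was below the lowest mouse of every other group, the lowest of which had 46.1 in the Cd wild types. Arntl averaged 156 in Lp heterozygotes and 583 in Lp wild types, with the other 7 group means between 92.7 and 246. Per3 averaged 512 in Lp heterozygotes and 203 in Lp wild types, with the other means between 263 and 712. Dbp averaged 6156 in Lp heterozygotes and 3053 in Lp wild types, with the other means between 4412 and 10822. For these 4 genes the heterozygote mean lay within the range of the other groups and the Lp wild-type mean lay outside it.

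**Figure D3:**
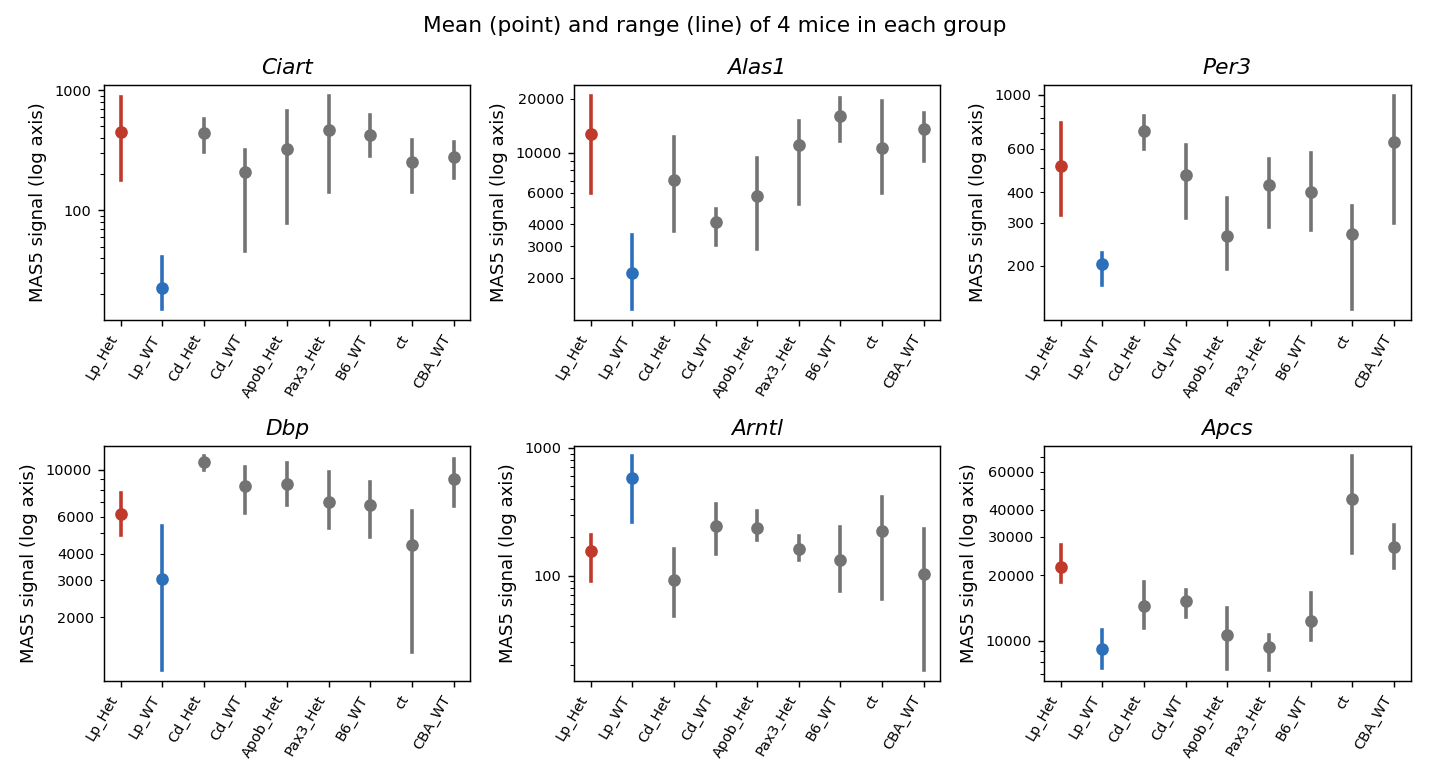
MAS5 signal on a log axis of 6 genes in the 9 groups of the panel, with the mean as a point and the lowest to highest of 4 mice as a line; Lp heterozygotes are red, Lp wild types blue and the other groups grey (Cd heterozygotes and wild types, Apob and Pax3 heterozygotes, C57BL/6J as B6_WT, ct, and CBA/CaJ as CBA_WT). The Lp wild types hold the lowest mean for Ciart (22.8) and Alas1 (2140) and the highest for Arntl (583), while for Apcs the ct mean of 45015 is the highest.

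Alas1, the rate-limiting enzyme of heme synthesis, had 14599, 5991, 20886 and 9635 in Lp heterozygotes, against 1538, 1340, 2202 and 3480 in Lp wild types. Every heterozygote exceeded every wild type (2.52 ± 0.36, 5.72-fold, limma adjusted p = 0.0541), and a further Alas1 probe set (1455282_x_at) gave 1.45 ± 0.30, also without overlap. The group means were 12778 ± 6455 in Lp heterozygotes and 2140 ± 966 in Lp wild types (SD, n = 4 each), and those of the other 7 groups lay between 4123 and 16046. The later enzymes of the pathway did not show a difference of that size: Alad had -0.12 ± 0.15, Cpox -0.27 ± 0.21, Fech 0.19 ± 0.13, Urod 0.08 ± 0.18 and Ppox 0.38 ± 0.22. Of 28 iron and heme genes tested, 0 were called. At an unadjusted p below 0.05, 3 were higher (10.7%) and 4 lower (14.3%), against 3.63% and 6.04% of all genes. Without heterozygote 4 these counts were 2 and 2. Slc11a2, an iron transporter, had 342, 355, 278 and 252 in Lp heterozygotes, against 406, 627, 663 and 331 in Lp wild types (-0.64 ± 0.23). Wild type 4 lay within the heterozygote range. The other tested Slc11a2 probe sets disagreed, at 0.04 ± 0.23, -0.74 ± 0.31 and -0.12 ± 0.21, all with overlapping groups. Hepcidin (Hamp) had a log2 difference of 0.27 ± 0.15.

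Apcs, which encodes serum amyloid P, a pentraxin of the acute phase in mice, had 18968, 22217, 18677 and 27632 in Lp heterozygotes, against 11251, 8324, 7522 and 9709 in Lp wild types. The groups were well apart (1.25 ± 0.17, 2.37-fold, limma adjusted p = 0.0541). Of 28 acute phase genes tested, 0 were called, with 5 higher (17.9%) and 0 lower (0%) at an unadjusted p below 0.05. The shares of all genes were 3.63% and 6.04%. The median log2 difference of the list was 0.25 as deposited and 0.03 after quantile normalization. The metallothioneins Mt1 and Mt2, which bind zinc and copper, had differences of 0.82 ± 0.20 and 0.93 ± 0.27. Saa1, a serum amyloid A, had 4574, 3501, 21197 and 4616 in Lp heterozygotes, against 1845, 3711, 2612 and 2878 in Lp wild types (1.23 ± 0.45), and without heterozygote 3 it was 0.64 ± 0.22. Lcn2 (0.49 ± 0.42), Hp (0.22 ± 0.13) and Saa3 (-0.01 ± 0.28) did not reach an unadjusted p of 0.05.

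Gpcpd1, a phosphodiesterase that splits glycerophosphocholine, had 2084, 2154, 2984 and 2639 in Lp heterozygotes, against 1057, 1066, 1197 and 782 in Lp wild types (1.25 ± 0.18, 2.37-fold, limma adjusted p = 0.0541). Snx10, an endosomal sorting nexin, had 1816, 1592, 2121 and 1852 in Lp heterozygotes, against 967, 898, 744 and 896 in Lp wild types (1.05 ± 0.15, 2.08-fold, limma adjusted p = 0.0541). In both genes the lowest heterozygote was well above the highest wild type. The other probe sets of Gpcpd1 and Snx10 had overlapping groups, so the difference rests on 1 probe set for each gene. The other 7 of the 12 genes named for the smallest p among those higher without overlap had an adjusted p of 0.146 each. They were Bnip3 (0.88 ± 0.15), a mitophagy receptor; Coq10b (1.67 ± 0.30), a coenzyme Q binding protein; Nmrk1 (1.33 ± 0.25), a nicotinamide riboside kinase; Fmo2 (1.23 ± 0.23), a flavin monooxygenase; Wdr45b (0.68 ± 0.13), an autophagy protein; G0s2 (1.32 ± 0.25), an inhibitor of adipose triglyceride lipase; and 1810055G02Rik (1.43 ± 0.26). G0s2 had 11823, 14872, 7654 and 9266 in Lp heterozygotes, against 3800, 3750, 3186 and 6919 in Lp wild types. Coq10b had 1597, 2033, 3312 and 1770 in Lp heterozygotes, against 747, 330.5, 767 and 873 in Lp wild types. In both, the highest wild type stayed below the lowest heterozygote.

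Among the genes lower in heterozygotes none was called by limma. Ppp1r3c, which tethers protein phosphatase 1 to glycogen, had the smallest p among the 12 named, with 1535, 2688, 1016 and 1811 in Lp heterozygotes, against 5246, 5066, 4669 and 3657 in Lp wild types (-1.46 ± 0.25, limma adjusted p = 0.146). Mreg, encoding melanoregulin, had 3430, 2581, 4578 and 2627 in Lp heterozygotes, against 5983, 8552, 8634 and 6159 in Lp wild types (-1.16 ± 0.21). Rdx, encoding radixin, which ties the bile canaliculus membrane to actin, had 4814, 5107, 5505 and 5438 in Lp heterozygotes, against 8432, 8079, 10170 and 8034 in Lp wild types (-0.73 ± 0.13). Its other probe sets gave -0.09 ± 0.14 and -0.49 ± 0.19 with overlapping groups, so they disagreed. All 12 of these genes had every heterozygote below every wild type, because that was part of their choice. Lasp1, an actin binding protein, had -1.13 ± 0.21, and 4 of its 9 probe sets had groups apart. The others were Pxylp1 (-0.86 ± 0.16), a phosphatase of glycosaminoglycan synthesis; Sphk2 (-1.04 ± 0.20), a sphingosine kinase; Osgin1 (-1.17 ± 0.22), a target of Nrf2; Ampd2 (-0.90 ± 0.17), an AMP deaminase; Rhou (-0.68 ± 0.13), a small GTPase; Enho (-0.84 ± 0.17), encoding adropin; Ypel2 (-1.27 ± 0.26); and Dusp23 (-0.79 ± 0.16), a phosphatase. Their limma adjusted p was 0.146 or 0.156. A further probe set of Sphk2 gave 0.15 ± 0.23 and one of Enho gave 0.68 ± 0.41, of the opposite sign and with overlapping groups. Another Enho probe set (1452893_s_at) gave -1.08 ± 0.27, of the same sign and without overlap.

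**Figure D4:**
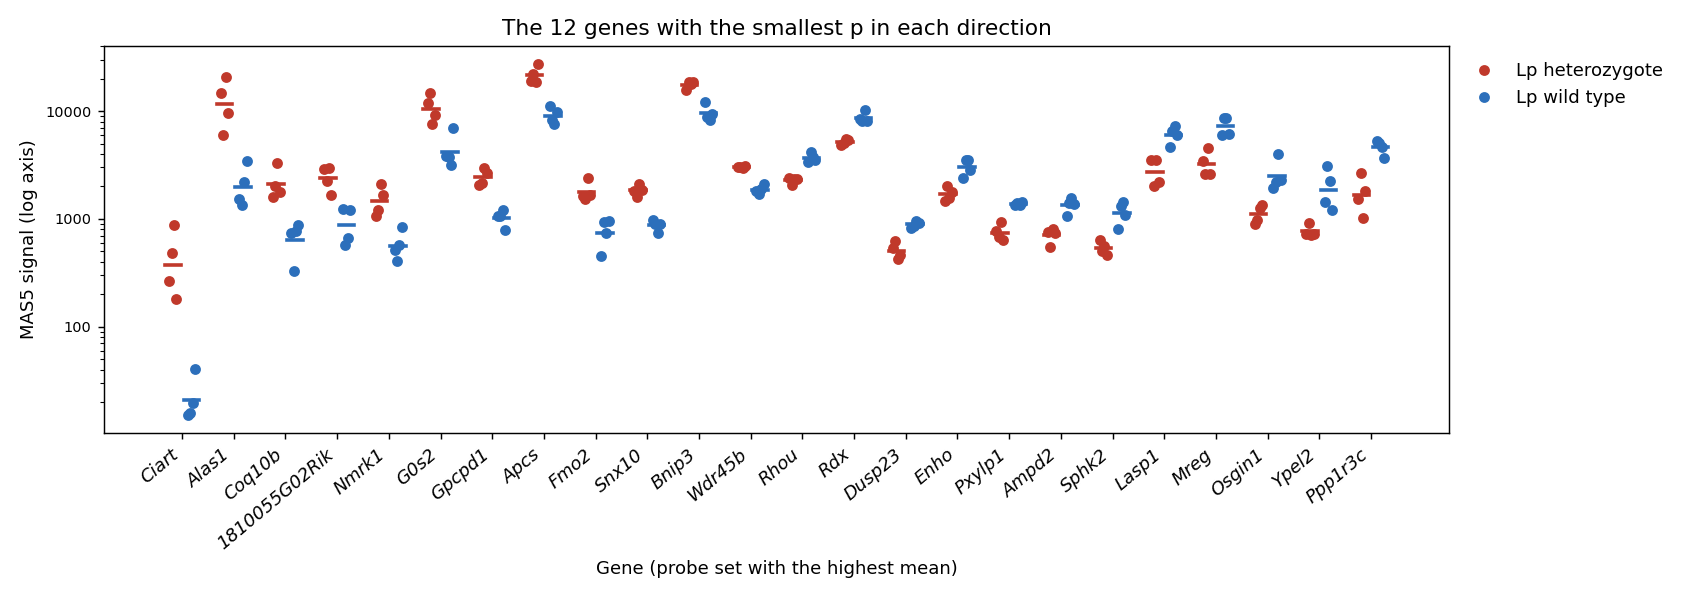
MAS5 signal on a log axis of the 12 genes higher and the 12 lower that have the smallest p among genes whose groups do not overlap, for the 4 Lp heterozygotes (left of each pair) and the 4 Lp wild types (right); each point is 1 mouse and the bar is the geometric mean. Genes run by log2 difference, with Ciart at 3.17 on the left and Ppp1r3c at -1.46 on the right.

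Vangl2 itself did not separate the groups. Its probe set with the highest mean (1419218_at) had 211, 148, 309.9 and 212 in Lp heterozygotes, against 43.2, 244, 201 and 274 in Lp wild types (0.35 ± 0.41, limma adjusted p = 0.856). Wild type 1, at 43.2, was the lowest of the 8, and the other 3 wild types lay within the heterozygote range. The remaining 2 Vangl2 probe sets gave log2 differences of -0.01 ± 0.23 and 0.04 ± 0.38, the last of them below the filter. The means of all 9 groups of the panel on 1419218_at lay between 191 and 267. These probe sets report transcript level and do not read the missense change, so they do not check the genotype labels.

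Of 38 planar cell polarity genes measured, 31 passed the filter. Of these, 0 were called by limma, 0 were higher and 1 was lower at an unadjusted p below 0.05, and the median log2 difference was -0.08. The exception was Fzd6, a Wnt receptor of the pathway, with 314, 327, 289.7 and 366 in Lp heterozygotes, against 381, 397, 442 and 474 in Lp wild types (-0.36 ± 0.16, unadjusted p = 0.0437, limma adjusted p = 0.573). Vangl1, the paralogue of Vangl2, had 423, 305, 364 and 459 in Lp heterozygotes, against 439.8, 412, 449.7 and 339 in Lp wild types (-0.08 ± 0.18). Scrib, a polarity scaffold, had -0.45 ± 0.28, and the cytoplasmic partners Prickle1 and Dvl1 had -0.20 ± 0.17 and -0.07 ± 0.14. The cadherin Celsr2 had -0.42 ± 0.24, and the kinase receptor Ror1 had 0.04 ± 0.27. The groups overlapped for each of the last 6. Further down the pathway, Rhoa (-0.15 ± 0.15), Rac1 (0.12 ± 0.17), Cdc42 (0.08 ± 0.14), Daam1 (-0.10 ± 0.18), Rock1 (-0.10 ± 0.20) and Mapk8 (-0.01 ± 0.15) also overlapped. These values are from the probe set with the highest mean of each gene. Without heterozygote 4, 0 of the 31 genes were higher and 3 lower at an unadjusted p below 0.05. Among 22 further tested probe sets of the list, chosen for mention after their values were seen, 0 were higher and 1 was lower at an unadjusted p below 0.05, with 4 higher and 1 lower without overlap. The lower one was Mapk9 1421878_at (-0.97 ± 0.17, unadjusted p = 7.59e-05, limma adjusted p = 0.146), while the other Mapk9 probe sets gave -0.25 and 0.08 with overlap. The 4 higher ones were 2 of Cdc42 (0.37 and 0.29), 1 of Rac1 (0.11) and 1 of Ryk (0.30). Below the filter, Prickle1 1444759_at gave -1.10 ± 0.35 without overlap. For Rhoa, whose SE was 0.15, and Cdc42, whose SE was 0.14, the spread was narrow, and for Vangl2, with an SE of 0.41, it was wide. Celsr1, Celsr3, Dvl3, Fjx1, Fzd3, Ptk7 and Ror2 fell below the filter. In the canonical Wnt and pericentral list, 0 of 22 were called, and Glul, the glutamine synthetase of pericentral hepatocytes, had 16085, 12457, 17738 and 15393 in Lp heterozygotes, against 20229, 18964, 18507 and 21376 in Lp wild types (-0.37 ± 0.14, unadjusted p = 0.0238).

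Genes close to Vangl2 on chromosome 1 were examined because heterozygotes and wild types of 1 line can differ in the segment around a mutated gene. Among the 200 genes nearest on each side in RefSeq gene order, 113 were tested and 0 were called by limma. At an unadjusted p below 0.05, 8 were higher (7.08%) and 9 lower (7.96%), and the groups were apart for 8 higher and 8 lower. For the counts by unadjusted p the background is the 3.63% and 6.04% of all genes given above. For the groups apart it is 2.35% of all genes higher and 3.47% lower. Apcs lies 37 genes from Vangl2 and has the largest difference of the 113. Dusp23, 30 genes away on the same side, had 539, 617, 421 and 461 in Lp heterozygotes, against 823, 857, 954 and 921 in Lp wild types (-0.79 ± 0.16, limma adjusted p = 0.156). Coq8a, a kinase-like protein of coenzyme Q synthesis 165 genes away, had 3864, 4352, 2498 and 3700 in Lp heterozygotes, against 7150, 7570, 7793 and 5103 in Lp wild types (-0.94 ± 0.19, limma adjusted p = 0.156). Psen2, a subunit of gamma-secretase 168 genes away, had 8426, 9517, 6079 and 7708 in Lp heterozygotes, against 11898, 13692, 10820 and 11463 in Lp wild types (-0.61 ± 0.16, limma adjusted p = 0.298). In these 3 all heterozygotes lay below all wild types, and in Apcs all lay above. On the other side of Vangl2, F11r (0.39 ± 0.13), a tight junction protein, and Apoa2 (0.39 ± 0.15), an apolipoprotein of high density lipoprotein, were higher without overlap.

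**Figure D5:**
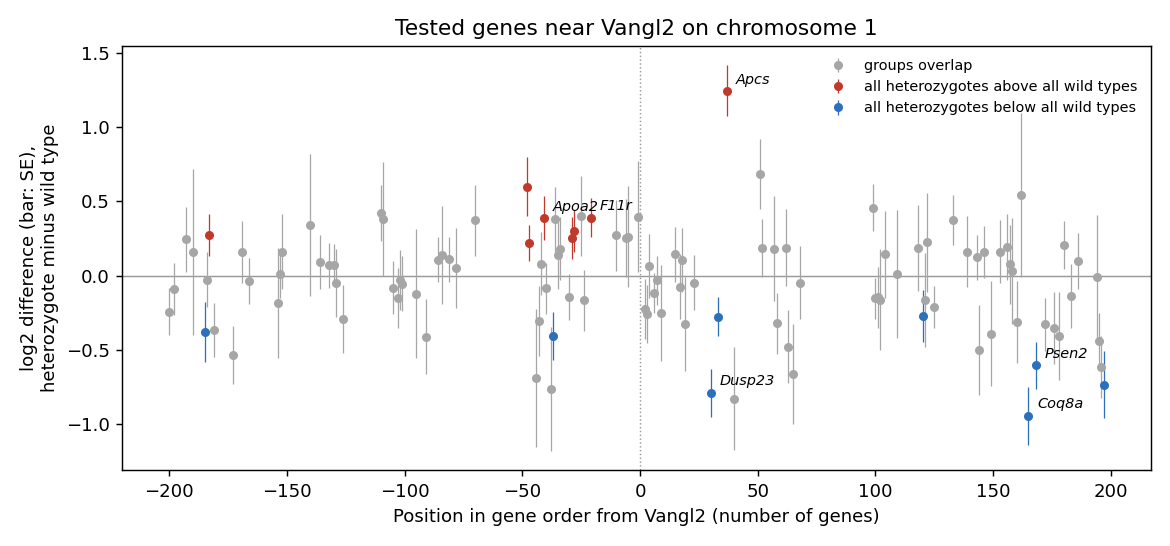
Log2 difference, Lp heterozygote minus Lp wild type (points, bars are the SE), of the 113 tested genes among the 200 nearest on each side of Vangl2, against their place in gene order from Vangl2 at 0. Genes whose groups do not overlap are coloured (8 higher, 8 lower); Apcs at 37 has the largest difference, 1.25.

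The heterozygotes' label concerns dietary folic acid, so folate and methionine genes were listed. Of 22 folate cycle genes tested, 0 were called by limma, with 1 higher and 1 lower at an unadjusted p below 0.05 and a median of 0.00. Slc25a32, the carrier of folate into mitochondria, had 654, 759, 619 and 506 in Lp heterozygotes, against 401, 247, 304 and 305 in Lp wild types, without overlap (0.97 ± 0.19, limma adjusted p = 0.146). Gldc, the decarboxylase of the glycine cleavage system, had 2884, 2266, 3087 and 1616 in Lp heterozygotes, against 3022, 6200, 5878 and 3294 in Lp wild types (-0.86 ± 0.27, unadjusted p = 0.00673). Mthfd1 (-0.18 ± 0.23), Shmt1 (0.08 ± 0.17), Mtr (-0.15 ± 0.39) and Slc46a1 (-0.19 ± 0.18) overlapped between groups. Of 21 methionine cycle and transsulfuration genes, 0 were called. At that threshold 4 were higher (19%) and 4 lower (19%), against 3.63% and 6.04% of all genes. Nnmt, which methylates nicotinamide, had 10022, 12580, 17224 and 17030 in Lp heterozygotes, against 10180, 8521, 6333 and 7434 in Lp wild types (0.79 ± 0.20). Gnmt, the glycine methyltransferase, had 44503, 54672, 43770 and 58338 in Lp heterozygotes, against 39172, 37249, 39176 and 39200 in Lp wild types, without overlap (0.37 ± 0.14). Gclc, the catalytic subunit of glutamate-cysteine ligase, had 5346, 5763, 6011 and 3964 in Lp heterozygotes, against 5469, 12146, 12104 and 8063 in Lp wild types (-0.78 ± 0.24), and wild type 1 lay within the heterozygote range. Cbs (-0.52 ± 0.18) and Csad (-0.97 ± 0.32), enzymes of cysteine and taurine synthesis, had the same sign.

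In lipid metabolism, 0 of 28 fatty acid and triglyceride synthesis genes were called by limma. At an unadjusted p below 0.05, 5 were higher (17.9%) and 2 lower (7.14%), against 3.63% and 6.04% of all genes. Without heterozygote 4 these counts were 7 and 0. Lpin1, a phosphatidate phosphatase, had 8882, 3078, 11516 and 3465 in Lp heterozygotes, against 2719, 1214, 1413 and 2527 in Lp wild types, without overlap (1.62 ± 0.41, unadjusted p = 0.00163). Mfsd2a, a lysolipid transporter that fasting induces in mouse liver, had 0.97 ± 0.30, and Thrsp, a lipogenic factor, had 1.05 ± 0.34. Scd1, the stearoyl-CoA desaturase, had 57305, 65387, 51850 and 69787 in Lp heterozygotes, against 44281, 42749, 47918 and 50511 in Lp wild types (0.39 ± 0.14). Of 34 genes of fatty acid oxidation and PPAR alpha targets, 0 were called, 1 was higher (Pex11a, 0.57 ± 0.26) and 0 were lower. Without heterozygote 4, 5 of these genes were higher and 0 lower. Of 20 cholesterol synthesis genes, 0 were called and 2 were lower (Insig1, -0.55 ± 0.21, and Mvk, -0.79 ± 0.34). Of 27 bile acid genes, 0 were called, 1 was higher (3.7%) and 4 were lower (14.8%). Cyp7a1, which catalyses the first step from cholesterol to bile acids, had 1705, 1831, 7357 and 2284 in Lp heterozygotes, against 621, 735, 627 and 2105 in Lp wild types (1.58 ± 0.46, unadjusted p = 0.00473), and wild type 4 exceeded 2 of the heterozygotes. Cyp8b1 had -0.64 ± 0.25 and the bile salt export pump Abcb11 had -0.54 ± 0.22. Without heterozygote 4 the counts were 2 higher and 0 lower.

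Of 21 glucose metabolism genes, 0 were called by limma. At an unadjusted p below 0.05, 3 were higher (14.3%) and 4 lower (19%), against 3.63% and 6.04% of all genes. G6pc, the glucose-6-phosphatase that releases glucose from the liver, had 8120, 10251, 10348 and 4804 in Lp heterozygotes, against 14384, 13027, 15929 and 13651 in Lp wild types, without overlap (-0.82 ± 0.22, unadjusted p = 0.00254). Gys2, the liver glycogen synthase, had 0.55 ± 0.22, and Pygl, the glycogen phosphorylase, had -0.34 ± 0.16. Without heterozygote 4 the counts were 4 higher and 2 lower. Irs2, an adaptor of the insulin receptor, had 132, 160.2, 98.5 and 79.1 in Lp heterozygotes, against 249, 217, 214 and 228 in Lp wild types, without overlap (-0.87 ± 0.23, unadjusted p = 0.0027). Irs1 had -0.57 ± 0.23, and Igf1, the growth factor that growth hormone induces in liver, had 24545, 30621, 24022 and 31061 in Lp heterozygotes, against 20555, 19048, 22199 and 20787 in Lp wild types (0.41 ± 0.14). Onecut1, a hepatocyte transcription factor, had 1.74 ± 0.53, where heterozygote 3 at 757 was highest and wild type 3 at 14.4 lowest. In the growth hormone and insulin list 0 of 29 were called, with 3 higher and 5 lower. In the list of female-biased liver genes 0 of 14 were called, with 3 higher and 0 lower, or 7 and 1 without heterozygote 4. Of 15 male-biased liver genes 0 were called, with 1 higher and 0 lower. Relative to the wild-type mean, heterozygote 4 averaged -0.39 on the female-biased list, against 0.48 to 0.75 in the other heterozygotes. On the male-biased list it averaged 0.88, against -0.41 to 0.20 in the other heterozygotes and -0.34 to 0.52 in wild types. The reason was not tested.

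Genes of DNA replication, mitosis and G1 had 8 of 31 members higher (25.8%) and 1 lower (3.23%) at an unadjusted p below 0.05. The shares of all genes were 3.63% and 6.04%. In this list 0 were called by limma, and the median difference was 0.09. Ccnb2, a mitotic cyclin, had 256, 182, 105 and 334 in Lp heterozygotes, against 43.2, 10.4, 27.5 and 123 in Lp wild types (1.83 ± 0.46, unadjusted p = 0.00157). Cdk1, the mitotic kinase, had 312, 222, 152 and 429 in Lp heterozygotes, against 39.4, 81.4, 56.7 and 241 in Lp wild types (1.39 ± 0.42). Mcm6, a subunit of the replicative helicase, had 433, 449, 407 and 475 in Lp heterozygotes, against 313, 287, 170.0 and 323 in Lp wild types, without overlap (0.68 ± 0.21), while its other probe set gave -0.03 ± 0.22. Heterozygote 4, the array that stood apart, had the highest of the 8 signals for each of these 3 genes. Without it 6 members were higher and 2 lower, and the Ccnb2 and Cdk1 differences were 1.61 ± 0.48 and 1.17 ± 0.44. Without heterozygote 3, which had the lowest heterozygote signal for all 3 genes, 11 members were higher and 2 lower and the median was 0.41. Gadd45g, a growth arrest gene, had -1.36 ± 0.55.

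Of 33 ER stress and heat shock genes, 0 were called by limma. At an unadjusted p below 0.05, 6 were higher (18.2%) and 6 lower (18.2%), against 3.63% and 6.04% of all genes. Herpud1 (0.66 ± 0.19), Chac1 (0.92 ± 0.26) and Dnajb9 (0.61 ± 0.18), targets of the unfolded protein response, were on the higher side. Hsp90b1 (-0.45 ± 0.17), Manf (-0.45 ± 0.18) and Trib3 (-0.64 ± 0.26) were on the lower side. Of 27 glutathione transferases and Nrf2 targets, 0 were called, 1 was higher (3.7%) and 5 were lower (18.5%). Without heterozygote 4 these counts were 3 and 3. Osgin1 had 906, 974, 1251 and 1337 in Lp heterozygotes, against 1940, 2222, 3996 and 2288 in Lp wild types, the lowest wild type being above every heterozygote (-1.17 ± 0.22, limma adjusted p = 0.146). Of 43 xenobiotic metabolism genes, 0 were called, 2 were higher (4.65%) and 5 lower (11.6%), or 5 and 5 without heterozygote 4. Cyp2c37 (-0.85 ± 0.28) and Cyp2c50 (-0.77 ± 0.25) were among those lower over all arrays. These Cyp2c genes are near-identical paralogues, and their probe sets may share signal. Of 24 immediate early genes, 0 were called, 3 were higher (12.5%) and 1 lower (4.17%). Only 8 of the 24 had positive differences, with a median of -0.10. Cebpb (1.02 ± 0.29) and Cebpd (0.87 ± 0.20), transcription factors of this list, were on the higher side.

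Abundant transcripts were shifted as a class, and the shift depended on scaling. Of 46 oxidative phosphorylation genes 43 had positive differences, with a median of 0.22 as deposited, against 39 and 0.08 after quantile normalization. At an unadjusted p below 0.05, 3 were higher, or 15 without heterozygote 3. For 28 ribosomal protein genes the counts were 25 and 20, and the medians 0.20 and 0.05. For 11 hepatocyte markers the median was 0.24 as deposited with 10 positive, and -0.01 after quantile normalization with 5 positive. In the tenth of probe sets with the highest signal the median difference was 0.08 as deposited and 0.01 after quantile normalization. Small positive values of abundant genes such as Alb, Ttr, Scd1, Gnmt and Igf1 lie within this class.

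Markers of other liver cells mostly overlapped between groups, and in bulk tissue fewer cells of a type and less RNA per cell cannot be told apart. The summed signal of 19 Kupffer cell and macrophage markers was 35698 to 46629 in Lp heterozygotes and 34592 to 43948 in Lp wild types. The summed signal of 9 cholangiocyte markers was 1383 to 2407 in Lp heterozygotes and 880 to 1337 in Lp wild types, without overlap. A sum follows its most abundant members, and only 1 of the 9 had groups apart. Of the 6 that were tested, 4 had positive differences and 1 had an unadjusted limma p below 0.05. Among 21 lymphocyte markers, 13 were tested and 2 of these had positive differences, with a median of -0.26. Ighm, the heavy chain of immunoglobulin M, had 243, 231, 219.5 and 236 in Lp heterozygotes, against 326, 324, 417 and 345 in Lp wild types, without overlap (-0.55 ± 0.17, unadjusted p = 0.00604). The other 3 tested Ighm probe sets gave 0.10, -0.28 and 0.10 with overlapping groups. The summed lymphocyte signal overlapped, at 1951 to 3358 in Lp heterozygotes and 2466 to 3539 in Lp wild types. The part of these cell types in the gene results was not tested.

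The Lp difference was then set against those of 2 other heterozygous lines with which it shares no array, by a limma test of the difference between differences over 16 arrays each. Against Cd heterozygotes and their wild types, 1 probe set was called higher (0.00387%) and 1 lower (0.00387%), with 1560 at an unadjusted p below 0.05 (6.04%). The one lower was a Smim10l1 probe set (1460464_at), named after its values were seen, whose Lp difference was 0.00 and whose other 3 probe sets were not called. The one higher was 1453023_at, the probe set called in Lp itself (1.45 ± 0.22, limma adjusted p = 0.0286). Ciart and Alas1 did not pass this test. For Ciart the Lp difference was 3.17 ± 0.42 and the Cd difference 1.21, a difference of 1.96 ± 0.64 (limma adjusted p = 0.814). For Alas1 the Cd difference was 0.65 and the difference of differences 1.86 ± 0.52 (limma adjusted p = 0.713). With these errors the 2 lines are not shown to act alike.

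Against Apob heterozygotes and C57BL/6J, 88 probe sets were called higher in the Lp difference (0.34%) and 142 lower (0.548%). Of these 230, 216 had opposite signs in the 2 lines. The Lp difference was the larger in size in only 63, and 153 had an Lp difference at an unadjusted limma p below 0.05. The calls thus also reflect the Apob difference. Alas1 had an Lp difference of 2.52 ± 0.36 and an Apob difference of -1.58, 4.10 ± 0.53 apart (limma adjusted p = 0.00153). Ppp1r3c had -1.46 ± 0.25 in Lp and 1.57 in Apob, -3.03 ± 0.39 apart (limma adjusted p = 0.00153). Rdx had -0.73 ± 0.13 in Lp and 1.23 in Apob, -1.96 ± 0.23 apart (limma adjusted p = 0.00132). Ciart had 3.17 ± 0.42 in Lp and -0.62 in Apob, 3.80 ± 0.68 apart (limma adjusted p = 0.0118). Apcs had 1.25 ± 0.17 in Lp and -0.23 in Apob, 1.47 ± 0.28 apart (limma adjusted p = 0.0173). In Alas1, Ppp1r3c and Rdx the Apob difference alone ran against the Lp difference by over 1 log2 unit. The count of calls moved between 80 and 391 when single arrays were left out, and without Apob heterozygote 3 it was 80, without Lp wild type 3 it was 84.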

How the data were processed

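Total RNA of 1 liver sample per mouse was hybridised to 1 Affymetrix array, per the labels' protocols. The deposited values are signal intensity on a linear scale, 1 per probe set, made by the authors with MAS5, per the submitters' processing notes; the MAS5 version and the annotation build are not given in the sources used here. On every Lp array the mean signal trimmed by 2% at each end was 500.0, so arrays share a scale. No detection calls were used, and the number of arrays limits the precision.

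Values were taken as log2(signal + 23) from the deposited intensity. The 64 control probe sets were left out. Probe sets with a mean above the 40th percentile of the 8 arrays (log2 6.59) were fitted with limma 3.58.1 in R 4.3.3 (lmFit, then eBayes with a variance trend, two-sided), on the 4 heterozygote and 4 wild-type arrays alone. Benjamini-Hochberg adjustment ran over all 25823, and calls were made at 0.05. Differences from the Cd and Apob lines were contrasts over 16 arrays. The code was tested on simulated data.

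Symbols came from the platform annotation, updated by Entrez ID. Of 45037 probe sets, 34945 have 1 symbol, 932 several and 9160 none; none is named from a probe set with several. A gene was read from its probe set with the highest mean. Of 966 list entries, 852 had a probe set and 786 were tested.

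Members and lists were chosen with earlier results of these data known. The rule for naming took Vangl2 and the planar cell polarity genes. In each direction, because fewer than 10 genes were called, it took the 12 with the smallest p whose groups do not overlap. It also took the 2 smallest p of each list and the 4 smallest p near Vangl2. Not every gene so chosen is named in the text. The ribosomal protein, oxidative phosphorylation, interferon, MHC and endothelial lists, among others, have no member named for them. Other members of a list are named after their values were seen. Lists were described by counts, without a set test. Alternatives covered scaling, offset, filter, variance trend, array weights, all 36 arrays, probe set choice, replicate block and leaving out each array.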

Additional observations from a re-analysis of the deposited data

Results flagged for a closer look

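Within groups of 4 mice, 94 sets of values were examined for a single sample standing apart from the other 3 by Dixon's 95% criterion, which chance meets in about 1 in 20. There were 7 such values. Coq10b was lowest in Lp wild type 2, at 330 (330.465 as deposited). Rhou was lowest in Lp heterozygote 2, at 2053, and Ypel2 was highest in the same mouse, at 912. Nfil3 was lowest in Lp wild type 1, at 406. Tef was highest in Lp heterozygote 3, at 4395. The median signal was lowest on the Lp wild type 4 array, at 97.0, and the lower quartile was highest on the Lp heterozygote 4 array, at 56.3.

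For 14 named genes the Lp difference departed from the Apob difference at a limma adjusted p below 0.05, in the test of the difference itself. Over all probe sets the shares called were 0.34% higher and 0.548% lower. All 14 had been named for a small p in the Lp difference, and the same Lp arrays enter this test. The count therefore follows in part from that choice. On the log2 scale, Lp minus Apob, the values were 3.80 for Ciart, 4.10 for Alas1, 1.47 for Apcs, 1.94 for Coq10b, 2.43 for 1810055G02Rik, 2.26 for G0s2 and 1.74 for Per3. On the lower side they were -3.03 for Ppp1r3c, -1.60 for Mreg, -1.96 for Rdx, -1.35 for Lasp1, -2.01 for Ampd2, -1.61 for Ypel2 and -0.95 for Psen2.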

How the results depend on the processing

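The number of Lp probe sets called by limma was 1 as reported and 2 with quantile normalization, with median centring and without the variance trend. It was 5 with 1 probe set per gene, 6 with an offset of 64, 6 over all 36 arrays, 6 without probe sets that share targets, and 42 with array weights (25 higher, 17 lower). In a fit over all arrays without CBA wild type 4 and ct 3, chosen after seeing the data, it was 43 (25 higher, 18 lower). The cause of these changes was not tested. Leaving out each array gave 1 to 5, the 5 without Lp heterozygote 2, 1 without Lp heterozygote 1 or Lp wild type 3, and 2 without any other. Differences from Cd numbered 2 as reported, 1 with quantile normalization, median centring, no variance trend, all 36 arrays or those without CBA wild type 4 and ct 3, 0 with 1 probe set per gene, and 1 to 4 when each array was left out, the 4 without Lp heterozygote 4 and the 1 without Lp heterozygote 1 or 3, Lp wild type 4, Cd heterozygote 1, 2 or 4, or Cd wild type 1, 3 or 4. At 0 called, 921 genes had an unadjusted limma p below 0.05. Differences from Apob numbered 230 as reported (88 higher, 142 lower), 102 with median centring (58 higher, 44 lower), 114 without the variance trend, 656 with array weights, 84 over all 36 arrays, 152 with 1 probe set per gene and 137 without shared targets (67 higher, 70 lower). Leaving out each array gave 80 to 391, with 391 without Apob heterozygote 4, 80 without Apob heterozygote 3, 113 without Apob heterozygote 2, 134 without Lp heterozygote 1, 135 without Lp heterozygote 2, 105 without Lp wild type 2, 84 without Lp wild type 3, 125 without C57BL/6J 1 and 133 without C57BL/6J 2.

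Clock genes higher at an unadjusted p below 0.05 numbered 7 to 10 over all alternatives. Of 855 alternative values of the named genes, 854 kept their sign and 53 passed the threshold where the reported value did not. Among values called in neither the reported nor the alternative fit, 0 moved by over 1 SD. Values called in either fit were not counted for such a move. Ciart, called with an offset of 64, fell there from 3.17 to 2.39. The exception in sign was a Vangl2 value.

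The descriptions set each heterozygote beside the wild type of its own number, without naming a shared litter or day. Deviations of same-numbered Lp mice correlated at -0.13, -0.21, 0.17 and -0.12. Those of differently numbered mice ran from -0.31 to 0.28, a range that holds all of these values. The correlations therefore cannot decide whether the numbers pair the samples. With the replicate number as a block, 2 Lp probe sets, 3 differences from Cd and 201 from Apob were called.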

Other observations

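Several genes outside the lists, or named after their values were seen, had large differences. St3gal5, the GM3 synthase, had log2 differences of 1.69 and 1.62 on its 2 probe sets, Lp heterozygote minus Lp wild type. Nrg4, a growth factor of the epidermal growth factor family, had 1.04 on the probe set with its highest mean and 2.03 on another. Nampt, the rate-limiting enzyme of NAD salvage, had 1.10, 0.67 and 0.75 on its 3 probe sets. Upp2, a uridine phosphorylase, had 0.74 and 1.22 on the 2 that were tested. St3gal5 and Nrg4 each had a probe set called in the fit over all 36 arrays.

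Ifi202b, an interferon-activated gene 69 genes from Vangl2 on the side of Apcs, was below the filter. Its signals (1421551_s_at) were 176, 212, 177 and 4.29 in Lp heterozygotes, against 3.76, 18.8, 3.05 and 4.90 in Lp wild types. In 3 of the 4 heterozygotes the signal was far above all wild types, and heterozygote 4 was among the wild types.

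In one-carbon metabolism, probe sets of the same gene disagreed. For Shmt2, a mitochondrial serine hydroxymethyltransferase, 1434204_x_at gave 1.34 without overlap, while the other 3 gave -0.14, -0.04 and -0.03. For Mthfd1, a cytosolic folate enzyme, 1436704_x_at gave -1.02 without overlap and the other 2 gave -0.18 and -0.53. Shh, of the neural tube list, had 290, 312, 281 and 384 in Lp heterozygotes, against 211, 77.1, 195 and 143 in Lp wild types (log2 0.98 ± 0.26, limma adjusted p = 0.328). Its other probe set, below the filter, gave -0.46 ± 0.30 with overlapping groups. Of the 19 genes tested in that list 0 were called, and 5 had positive differences, with a median of -0.18. At an unadjusted limma p below 0.05, 1 was higher (5.26%) and 3 lower (15.8%), against 3.63% and 6.04% of all genes.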
